A study of Mus musculus with 6 samples.

Results

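Conjugation enzymes attach a water-soluble group to drugs, hormones, bilirubin and lipid peroxidation products so that cells can export them. The genes described here were the rows of the deposited count table whose symbols start with Ugt1a, Ugt2 or Ugt3a, with Sult and a digit, or with Gsta, Gstm, Gstp, Gstt, Gstk, Gsto, Gstz or Mgst, without pseudogene symbols that hold -ps. That rule gave 55 of 24434 genes: 18 UDP-glycosyltransferases (Ugt), 12 sulfotransferases (Sult) and 25 glutathione transferases (Gst, counted with the microsomal Mgst). Polyadenylated RNA was sequenced from whole kidneys of mice on normal chow. There were 3 libraries of db/db mice, the diabetic model of the design text, and 3 of db/m mice, the control. The db allele disrupts the leptin receptor gene, and db/m mice carry it together with an unaffected allele, so both groups carry db. The sources used here do not give age, sex or strain background. They also do not state that each library came from its own animal, so the tests take the spread between libraries as the error.

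UDP-glucuronosyltransferases sit in the endoplasmic reticulum and transfer glucuronic acid from UDP-glucuronic acid, whereas the Ugt3a enzymes use other UDP-sugars. Cytosolic sulfotransferases take their sulfate group from the donor PAPS, and glutathione transferases join the tripeptide glutathione to electrophiles. In the kidney these reactions are concentrated in the proximal tubule, which also turns glutathione conjugates into mercapturic acids and secretes conjugates into urine.

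Of the 55 genes, 44 had enough counts to be tested and 26 passed the edgeR quasi-likelihood test (adjusted p under 0.05): 8 were higher and 18 lower in db/db. That is 59.1% of those tested, beside 24.0% of all 16373 genes tested, of which 13.1% were higher and 10.8% lower. The db/db and db/m libraries did not overlap for 32 of the 44 genes, beside 44.6% of all genes tested. Changes of at least 2-fold were called for 16 genes, 36.4% of those tested against 7.82% over all genes tested. The median log2 ratio was -0.48, where all genes tested had -0.06. Log2 ratios are db/db over db/m, positive where db/db was higher, and are printed with their standard error (SE). Levels are counts scaled to library size (CPM). The directions differed by family. Among the Ugt genes 5 rose and 5 fell, among the Sult genes 2 fell and 4 did not pass, and among the Gst and Mgst genes 3 rose and 11 fell. In whole tissue, fewer cells of a type and less RNA per cell cannot be told apart.

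**Figure D1:**
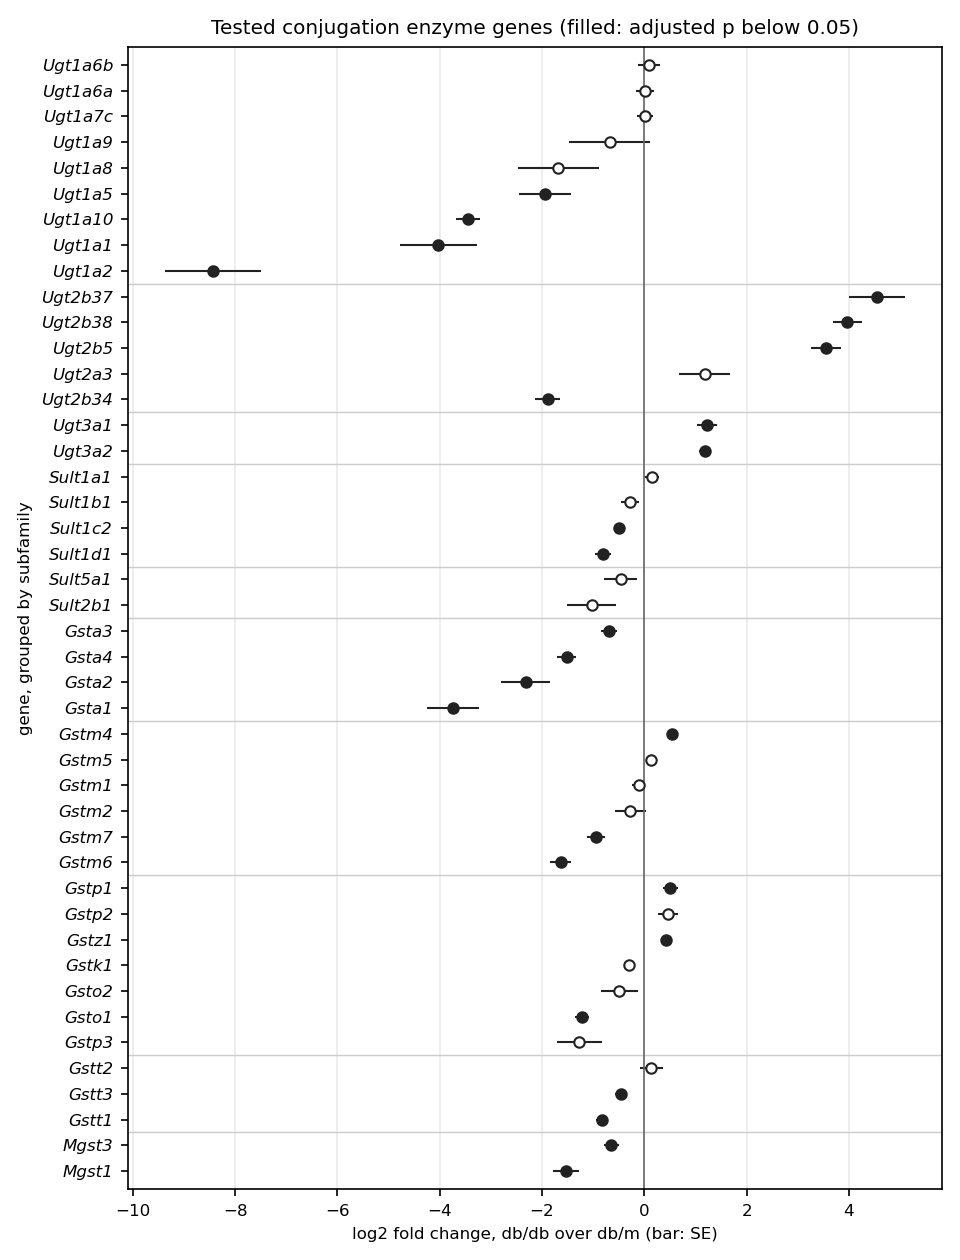
Log2 fold change of db/db over db/m for the 44 tested conjugation enzyme genes, grouped by subfamily, with bars for the standard error and filled points for an adjusted p below 0.05. The points run from -8.43 for Ugt1a2 to 4.55 for Ugt2b37, and the 4 Gsta genes all lie below 0.

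The Ugt2 genes form a cluster on chromosome 5 and encode enzymes that glucuronidate steroids, bile acids and drugs. In RefSeq gene order, with genes of other families left out, they run Ugt2b34, Ugt2b1, Ugt2b35, Ugt2b5, Ugt2b37, Ugt2a3 and Ugt2b38, followed by Sult1b1, Sult1d1 and Sult1e1. Within this run Ugt2b5, Ugt2b37 and Ugt2b38 rose 11.7-fold, 23.4-fold and 15.7-fold, Ugt2b34 fell 3.71-fold, and Ugt2a3 did not pass. The 250 bases before the annotated start of these 4 changed genes are shown because the 3 that rose have closely alike promoters and the 1 that fell does not share theirs. They are RefSeq sequences of GRCm38.p6 on the minus strand, written 5′ to 3′ in the direction of transcription, and were chosen after the values were seen. Capitals mark AGGTCA, the core letters that nuclear receptors bind, in the first 3 and TGTTCT, the core letters that steroid receptors bind, in the fourth.
Ugt2b5 (chr5:87140341-87140590): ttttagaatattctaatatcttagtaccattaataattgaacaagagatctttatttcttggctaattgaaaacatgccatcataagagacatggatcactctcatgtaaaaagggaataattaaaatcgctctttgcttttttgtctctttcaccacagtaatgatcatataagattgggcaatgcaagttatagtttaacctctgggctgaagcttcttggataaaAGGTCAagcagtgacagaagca
Ugt2b37 (chr5:87254789-87255038): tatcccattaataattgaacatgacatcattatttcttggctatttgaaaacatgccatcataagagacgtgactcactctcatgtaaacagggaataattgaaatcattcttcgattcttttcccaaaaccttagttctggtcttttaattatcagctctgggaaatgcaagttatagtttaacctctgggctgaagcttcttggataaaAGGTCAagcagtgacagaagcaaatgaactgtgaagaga
Ugt2b38 (chr5:87424204-87424453): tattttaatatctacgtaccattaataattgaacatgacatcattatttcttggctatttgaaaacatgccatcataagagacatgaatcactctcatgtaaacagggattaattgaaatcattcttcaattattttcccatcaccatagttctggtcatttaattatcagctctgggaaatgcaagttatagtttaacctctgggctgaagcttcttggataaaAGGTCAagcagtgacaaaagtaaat
Ugt2b34 (chr5:86906938-86907187): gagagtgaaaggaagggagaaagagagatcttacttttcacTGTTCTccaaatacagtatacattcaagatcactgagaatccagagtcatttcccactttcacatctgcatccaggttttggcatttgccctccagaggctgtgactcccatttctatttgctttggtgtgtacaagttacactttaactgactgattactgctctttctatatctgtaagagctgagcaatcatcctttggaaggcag

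In global alignments without a penalty for end gaps, the Ugt2b37 and Ugt2b38 promoters were 94.9% identical over 236 aligned bases. Ugt2b37 and Ugt2b5 were 88.1% identical over 226, and Ugt2b38 and Ugt2b5 88.3% over 240. All 3 hold AGGTCA on the coding strand, beginning at -22 in Ugt2b5, -39 in Ugt2b37 and -25 in Ugt2b38 relative to the start. These 3 promoters were more like each other than like those of Ugt2b35, Ugt2b1 or Ugt2a3. Whether promoter likeness goes with the rise was not tested. The promoters of Ugt2b35 and Ugt2b1, both too rare to test, were 76.4% to 78.0% and 73.6% to 79.8% identical to these 3. Ugt2b35 also holds AGGTCA, at -215. The same letters, on either strand, were found in 16.3% of 32851 RefSeq windows of 300 bases (250 before and 50 after the start). They were in 17.7% of the 62 windows of the conjugation genes, in 3 of 9 windows of genes that rose and in none of 22 windows of genes that fell. The 3 of 9 are the Ugt2b genes above, which are copies of each other and not independent. TGTTCT was in 19.0% of all windows, in 24.2% of those of the conjugation genes, in 0 of 9 windows of genes that rose and in 8 of 22 windows of genes that fell, 2 of which are windows of Gstm6. GTTAAT, part of the HNF1 site, was in 7.1% of all windows and 16.1% of those of the conjugation genes, and GCGTG, the core of the dioxin response element, in 32.4% and 22.6%. Windows existed for 50 of the 55 genes. A match of letters is not a binding site.

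Per kilobase of transcript, Ugt2b38 was the most abundant Ugt2 gene in both groups. Its level was 68.6, 40.2 and 88.2 CPM in db/m replicates 1 to 3 and 916, 1113 and 1056 CPM in db/db replicates 1 to 3; libraries are listed in this order throughout. The log2 ratio was 3.97 ± 0.29 SE (adjusted p = 0.000333), and the lowest db/db library stood far above the highest db/m library. Ugt2b37 was at 2.22, 1.95 and 8.50 CPM in db/m and at 96.4, 103 and 95.5 CPM in db/db, a log2 ratio of 4.55 ± 0.55 SE (adjusted p = 0.00207). The db/m spread here came from replicate 3, and without that library the value was 5.57. Ugt2b5 was at 3.67, 3.09 and 6.83 CPM against 55.3, 47.0 and 55.8 CPM, a log2 ratio of 3.54 ± 0.29 SE (adjusted p = 0.000508). In all 3 genes db/m replicate 3 was the highest control library.

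Ugt2b34 moved the other way, from 41.5, 46.0 and 24.4 CPM in db/m to 11.4, 9.19 and 9.53 CPM in db/db (log2 ratio -1.89 ± 0.24 SE, adjusted p = 0.00235). Here db/m replicate 3 was the lowest control library, again the closest to db/db. Ugt2a3 was rare, at no more than 0.547 CPM in db/m and 0.763 to 1.06 CPM in db/db, and its log2 ratio of 1.18 (SE 0.50) had an adjusted p of 0.124. Ugt2b1 and Ugt2b35 were too rare to test, with at most 0.238 CPM in any library. Summed over the 7 genes, Ugt2 transcripts were at 116, 91.4 and 128 CPM in db/m and at 1079, 1273 and 1218 CPM in db/db, 10.6-fold more. Ugt2b38 alone took 2.44% of the summed Ugt CPM in db/m and 30.1% in db/db.

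The proteins of Ugt2b5 and Ugt2b38 are 96.4% identical, those of Ugt2b5 and Ugt2b37 92.1% and those of Ugt2b37 and Ugt2b38 91.3%, in GENCODE M21. Of the 50-base windows of their transcripts, 41.7% (Ugt2b5), 18.3% (Ugt2b37) and 37.4% (Ugt2b38) also occur in transcripts of other genes, so the split of reads among them is uncertain. Counted as 1 feature, the 3 genes had a log2 ratio of 3.99 (SE 0.30) and still passed. Only 2.1% of the Ugt2b34 windows were shared.

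**Figure D2:**
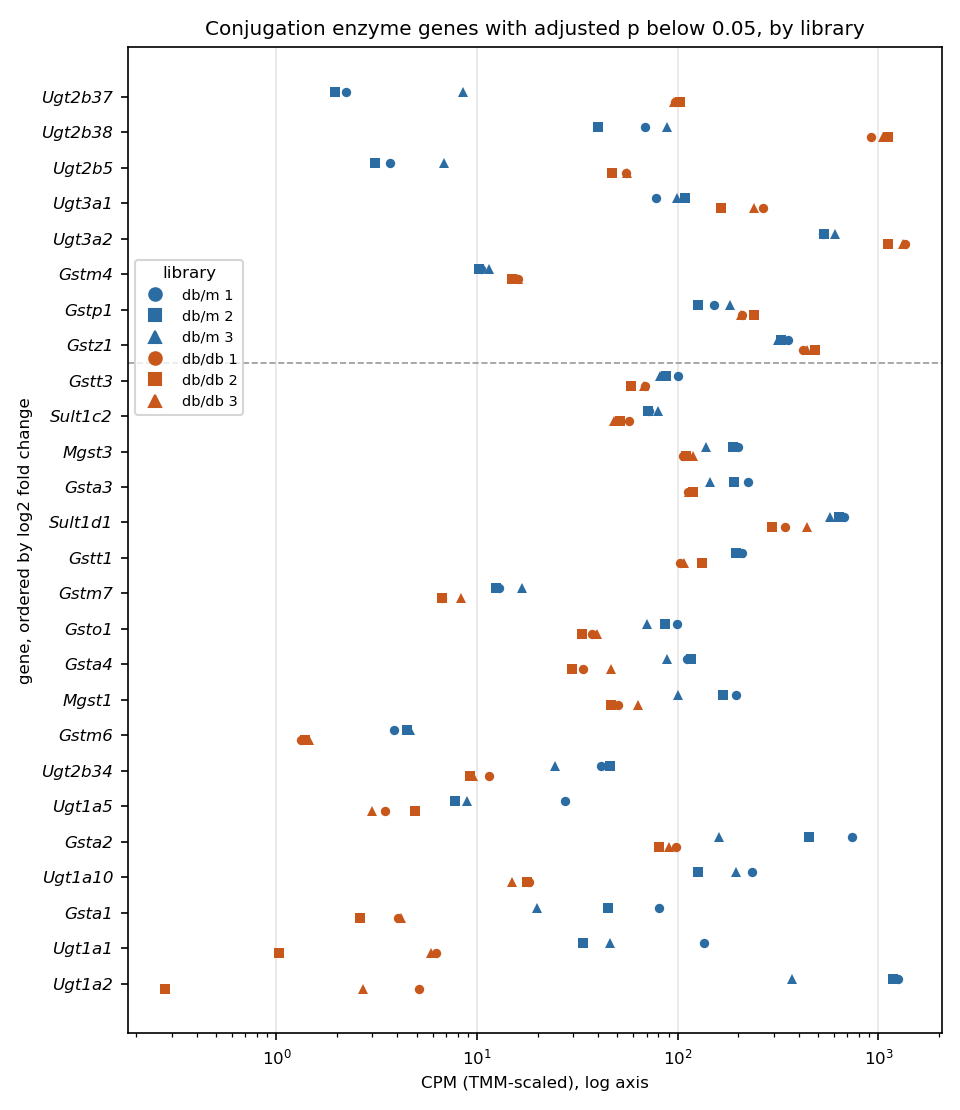
CPM on a log scale for each of the 26 conjugation enzyme genes with an adjusted p below 0.05, with 1 point per library. Colour tells the groups apart, and marker shape gives the replicate number. The db/m and db/db points do not overlap for any of these genes, and wide gaps are seen for Ugt1a2, Ugt1a10 and the Ugt2b5, Ugt2b37 and Ugt2b38 group.

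The Ugt1a genes form a cluster on chromosome 1 in which each gene has a first exon of its own and all share the remaining exons. In order they are Ugt1a10, Ugt1a9, Ugt1a8, Ugt1a7c, Ugt1a6b, Ugt1a6a, Ugt1a5, Ugt1a2 and Ugt1a1. Of these 9, the 3 last and the first fell, and the 5 in between did not pass. Ugt1a2 had the largest change of all 44 genes, a 345-fold lower level in db/db. Ugt1a1, the enzyme that conjugates bilirubin, was 16.3-fold lower.

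Ugt1a2 was at 1251, 1182 and 369 CPM in db/m and at 5.14, 0.277 and 2.70 CPM in db/db. Every db/db library was far below every control, although controls differed among themselves by several fold. Its log2 ratio was -8.43 ± 0.95 SE (adjusted p = 0.00159), and it ranged from -9.26, without db/db replicate 1, to -7.90 as each library was left out in turn. Ugt1a1 was at 135, 33.8 and 46.1 CPM in db/m and at 6.22, 1.03 and 5.88 CPM in db/db, a log2 ratio of -4.02 ± 0.75 SE (adjusted p = 0.00992). It was -3.17 without db/m replicate 1, and with db/m and db/db replicates 3 both left out the adjusted p was 0.0570. Ugt1a10 was at 234, 127 and 196 CPM against 18.2, 17.7 and 14.9 CPM (log2 ratio -3.45 ± 0.23 SE, adjusted p = 0.000232), the smallest adjusted p of the 44.

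Ugt1a5 fell less, and its call depended on single libraries. It was at 27.3, 7.80 and 8.89 CPM in db/m and at 3.49, 4.87 and 2.99 CPM in db/db, a log2 ratio of -1.95 ± 0.51 SE (adjusted p = 0.0312). Without db/m replicate 1 the value was -1.13, and leaving out any 1 db/db library lost the call (adjusted p 0.0694 to 0.105), as did limma-voom (adjusted p = 0.0865).

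The remaining Ugt1a rows showed no called difference. Ugt1a7c was at 822, 523 and 649 CPM in db/m and at 635, 711 and 663 CPM in db/db, with a log2 ratio of 0.01 ± 0.16 SE (adjusted p = 0.97). Its groups overlapped. Ugt1a6a (log2 ratio 0.01) and Ugt1a6b (0.09) were at 13.4 to 26.5 CPM in all libraries. Ugt1a8 had a log2 ratio of -1.68 ± 0.79 SE (adjusted p = 0.157) and Ugt1a9 one of -0.68 (SE 0.78, adjusted p = 0.552), and both were lowest in db/db replicate 2, at 0.277 CPM. Ugt1a2 had the same value in that library. Together the 9 rows summed to 1924 ± 607 CPM (SD, n = 3) in db/m and 743 ± 27.6 CPM in db/db, 2.59-fold less. The make-up changed with it: Ugt1a2 took 48.5% of Ugt1a in db/m and 0.364% in db/db, and Ugt1a7c 34.5% and 90.2%.

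Because of the shared exons, at least 58.2% of the transcript windows of each Ugt1a gene occur in another gene, and the longest coding transcript of Ugt1a7c in GENCODE M21 encodes the same protein as Ugt1a6a. The sources used here do not say how reads in the shared exons were assigned, so the level of a single row is uncertain. Summed into 1 feature, the 9 rows had a log2 ratio of -1.37 (SE 0.22) and passed.

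Both Ugt3a genes rose. They are neighbours on chromosome 15, their proteins are 87.2% identical, and 9.4% of their transcript windows were shared. Ugt3a2 was at 532, 534 and 606 CPM in db/m and at 1356, 1115 and 1323 CPM in db/db, a log2 ratio of 1.18 ± 0.11 SE (adjusted p = 0.000907). Ugt3a1 was at 78.1, 108 and 99.0 CPM against 266, 164 and 239.6 CPM, a log2 ratio of 1.23 ± 0.20 SE (adjusted p = 0.00596). Groups did not overlap for either gene, and db/db replicate 2 was the lowest db/db library for both. With both replicates 3 left out, the adjusted p of Ugt3a1 was 0.0596. Ugt3a2 grew from 20.7% to 37.0% of the summed Ugt CPM.

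**Figure D3:**
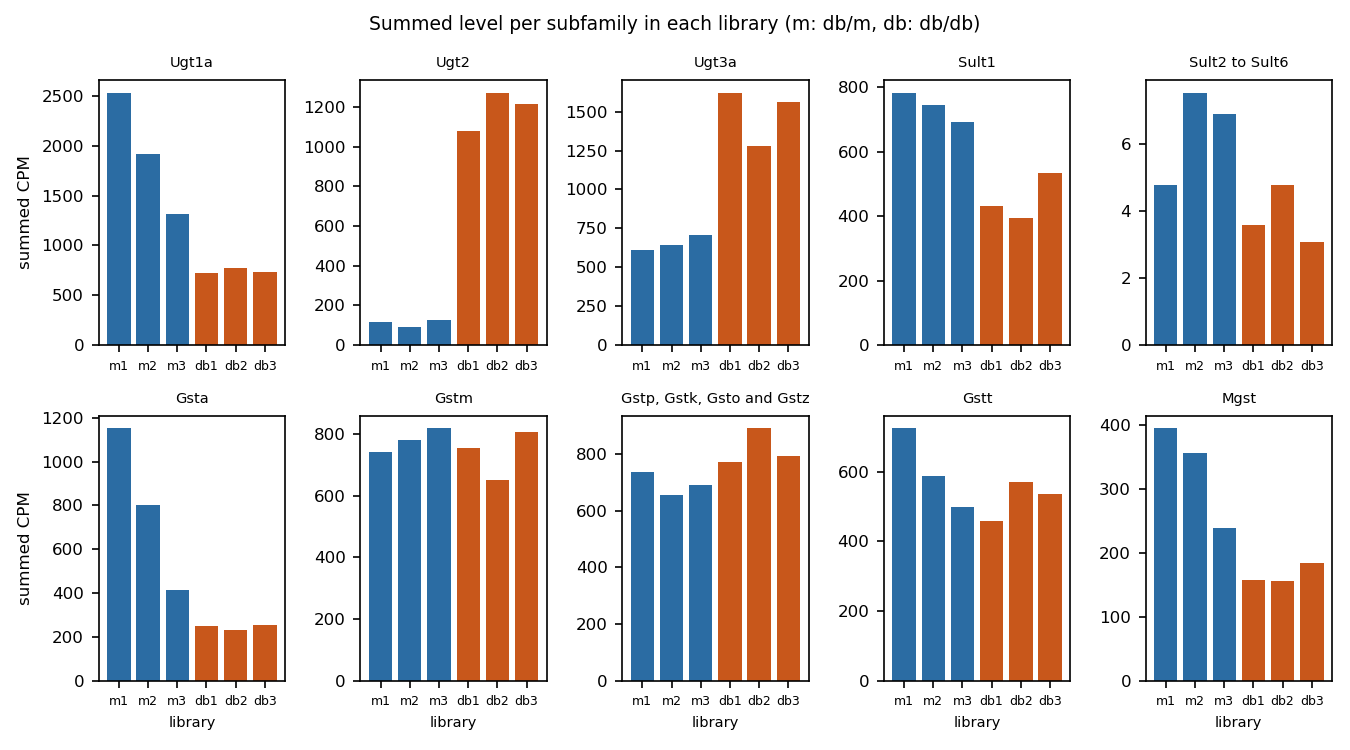
Summed CPM of each subfamily of conjugation enzymes on a linear scale, with a panel for each subfamily and a bar for each db/m and db/db library. The Ugt2 and Ugt3a sums are higher in every db/db library, the Ugt1a, Gsta, Mgst and Sult1 sums are lower, and the Gstm and Gstt sums overlap.

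Sums over whole families differed less than the Ugt1a, Ugt2 and Ugt3a sums did. The Ugt genes together summed to 2688 ± 554 CPM (SD, n = 3) in db/m and 3421 ± 94.5 CPM in db/db. The Sult sum went from 747 CPM in db/m to 457 CPM in db/db, and the Gst with Mgst sum from 3199 to 2491 CPM. Groups did not overlap for any family. All 55 genes summed to 6634 ± 1143 CPM in db/m and 6368 ± 225 CPM in db/db, with overlapping libraries. These sums were not tested. Per kilobase of the longest coding transcript, the most abundant member RNAs in db/m were Gstm1 (663 CPM per kilobase), Gsta2 (516) and Ugt1a2 (422). In db/db they were Gstm1 (614), Ugt2b38 (544) and Ugt3a2 (543), while Gsta2 stood at 103 and Ugt1a2 at 1.22 CPM per kilobase.

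Among the sulfotransferases, Sult1d1 and Sult1c2 fell and no other gene passed. Sult1d1, which sulfates catecholamines and other small phenols, made up 84.8% of the Sult1 sum in db/m and 79.4% in db/db. It was at 672, 636 and 576 CPM in db/m and at 341, 296 and 441 CPM in db/db, a log2 ratio of -0.80 ± 0.15 SE (adjusted p = 0.0107). It follows Ugt2b38 and Sult1b1 in the order on chromosome 5 given above, where Ugt2b38 rose and Sult1b1 had a log2 ratio of -0.28 (adjusted p = 0.289). Sult1c2 was at 71.5, 70.9 and 79.3 CPM against 57.1, 51.4 and 48.1 CPM (log2 ratio -0.50 ± 0.09 SE, adjusted p = 0.00992), and with both replicates 3 left out its adjusted p was 0.0827. Groups did not overlap for either gene.

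The other sulfotransferases did not pass or were too rare to test. Sult1a1, a broad phenol sulfotransferase, was at 29.4 to 42.2 CPM in all 6 libraries (log2 ratio 0.14, adjusted p = 0.463). Sult2b1, which sulfates cholesterol and other sterols, had a log2 ratio of -1.03 ± 0.47 SE (adjusted p = 0.153) at 0.594 to 3.06 CPM, and Sult5a1 one of -0.46 (adjusted p = 0.329), both with overlapping groups. Sult2a3 had 7, 12 and 17 counts in db/m and 0, 1 and 0 in db/db. It was removed by the filter on low counts, and was called lower in db/db when no filter was set. Sult2a8 and Sult6b2 had no counts, which allows up to 0.0759 to 0.120 CPM depending on the library, for counting error only. Sult1e1, Sult4a1 and Sult6b1 had at most 0.386 CPM in any library.

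The alpha class of glutathione transferases, which detoxifies lipid peroxidation products and also binds bilirubin and haem, fell as a whole: all 4 Gsta genes passed. Gsta1 and Gsta2 fell most, 13.4-fold and 4.99-fold. Gsta1 was at 80.5, 45.0 and 20.0 CPM in db/m and at 4.05, 2.62 and 4.16 CPM in db/db (log2 ratio -3.74 ± 0.51 SE, adjusted p = 0.00312), and the value was -3.15 without db/m replicate 1. Gsta2 was at 738, 449 and 159.6 CPM against 98.5, 81.0 and 90.2 CPM (log2 ratio -2.32 ± 0.48 SE, adjusted p = 0.0147). The db/db libraries were tight while the controls spread over several fold, with db/m replicate 3 closest to db/db in both genes. The 2 proteins are 95.5% identical, and 89.7% of Gsta1 and 64.2% of Gsta2 windows occur in other genes, including each other; the pair as 1 feature had a log2 ratio of -2.41 (SE 0.48) and passed. Without db/db replicate 2 or 3 the adjusted p of Gsta2 was 0.0613 or 0.0570.

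Gsta4, the form most active on the lipid aldehyde 4-hydroxynonenal, was at 111, 116 and 88.2 CPM in db/m and at 33.6, 29.8 and 46.4 CPM in db/db (log2 ratio -1.52 ± 0.18 SE, adjusted p = 0.00206). No windows of Gsta3 or Gsta4 were shared with other genes. Gsta3, which lies on chromosome 1 apart from the 3 others on chromosome 9, was at 223, 191 and 145 CPM against 113, 119 and 114 CPM (log2 ratio -0.69 ± 0.15 SE, adjusted p = 0.0167). Its call was lost without db/m replicate 2 or without any 1 db/db library (adjusted p up to 0.0627). Summed, the class went from 789 ± 369.7 CPM (SD, n = 3) to 245 ± 11.6 CPM, 3.21-fold less.

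The mu class was split and its main member did not pass. Gstm1 was at 542, 559 and 547 CPM in db/m and at 535, 423 and 567 CPM in db/db (log2 ratio -0.11, adjusted p = 0.524), with overlapping groups. It made up 70.3% of the class sum in db/m and 68.8% in db/db. Gstm5, the next in level, had a log2 ratio of 0.13 (adjusted p = 0.344) and Gstm2 one of -0.28 (adjusted p = 0.529). The 3 genes that passed were minor ones. Gstm6 was at 3.85, 4.48 and 4.60 CPM against 1.32, 1.39 and 1.46 CPM (log2 ratio -1.63 ± 0.20 SE, adjusted p = 0.0023). Gstm7 was at 12.8, 12.4 and 16.7 CPM against 6.70, 6.66 and 8.32 CPM (log2 ratio -0.95 ± 0.17 SE, adjusted p = 0.00898). Gstm4 rose, from 10.4, 10.3 and 11.5 CPM to 16.0, 14.9 and 16.1 CPM (log2 ratio 0.55 ± 0.11 SE, adjusted p = 0.0135). Its call was lost without db/m replicate 2 (adjusted p = 0.0546), without db/db replicate 3 (0.0530), without both replicates 3 (0.0722) and with total count scaling (0.0981). The class sum was 781 ± 38.9 CPM (SD, n = 3) in db/m and 739 ± 79.5 CPM in db/db, with overlapping libraries.

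Of the theta class, which acts on small halogenated compounds, Gstt1 fell from 209.6, 195 and 203 CPM to 102, 131 and 108 CPM (log2 ratio -0.83 ± 0.11 SE, adjusted p = 0.00262). Gstt3 was at 101, 87.6 and 81.7 CPM against 68.9, 58.3 and 68.2 CPM (log2 ratio -0.47 ± 0.11 SE, adjusted p = 0.0221), a call lost without db/m replicate 1 or 2, without any 1 db/db library and without both replicates 3 (adjusted p 0.0504 to 0.0713). Gstt2 was at 414, 305 and 214 CPM in db/m and at 287, 380.1 and 359.9 CPM in db/db, with overlapping groups and a log2 ratio of 0.14 (adjusted p = 0.689). Gstt4 was too rare to test.

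Both microsomal transferases that could be tested fell. Mgst1, a membrane enzyme with peroxidase activity toward lipid hydroperoxides, was at 195, 168 and 100.1 CPM in db/m and at 50.1, 46.3 and 63.7 CPM in db/db (log2 ratio -1.53 ± 0.25 SE, adjusted p = 0.00597). Mgst3 was at 199, 188 and 138 CPM against 107, 110.0 and 119 CPM (log2 ratio -0.65 ± 0.14 SE, adjusted p = 0.0178). The Mgst3 call was lost without db/m replicate 2 or without any 1 db/db library (adjusted p up to 0.0654). Groups did not overlap for either, and db/m replicate 3 was again the control nearest to db/db. Their transcripts share no windows with other genes. Mgst2 had at most 0.386 CPM in any library.

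Gsto1, an omega transferase that reduces dehydroascorbate and methylated arsenic, fell from 98.7, 86.4 and 70.3 CPM to 37.3, 33.3 and 39.7 CPM (log2 ratio -1.21 ± 0.14 SE, adjusted p = 0.00168), while Gsto2, near 1 CPM, had a log2 ratio of -0.49 (adjusted p = 0.362). Gstz1, which also serves tyrosine breakdown as maleylacetoacetate isomerase, was at 355, 328 and 316 CPM in db/m and at 421, 480.4 and 439 CPM in db/db (log2 ratio 0.42 ± 0.09 SE, adjusted p = 0.0162). Gstp1 was at 152, 126 and 182 CPM against 209, 240.1 and 206 CPM (log2 ratio 0.51 ± 0.14 SE, adjusted p = 0.0395), and its near copy Gstp2, 97.1% identical in protein, had a log2 ratio of 0.47 (adjusted p = 0.115). Groups did not overlap for Gsto1, Gstz1 or Gstp1. Both rises depended on the scaling and on single libraries. With total count scaling their log2 ratios were 0.16 (adjusted p = 0.141) and 0.25 (0.219). Gstp1 also lost its call with upper quartile scaling (0.0519) and without any 1 library other than db/m replicate 3 (0.0765 to 0.117). Gstz1 lost its call without db/m replicate 2 (0.0569), db/db replicate 2 (0.0511), db/db replicate 3 (0.0539) or both replicates 3 (0.110). The mitochondrial and peroxisomal form Gstk1 had a log2 ratio of -0.30 (adjusted p = 0.0661) and Gstp3 one of -1.27 (adjusted p = 0.0749).

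Across the 26 called genes, the control library nearest to the db/db libraries was db/m replicate 3 for 17 genes, replicate 2 for 7 and replicate 1 for 2. The same count was not made over all genes, so whether it is particular to the conjugation genes is not known. The kidney transcript Kap varied the same way among controls, at 292, 231 and 1400 CPM, against 33061, 35459 and 36390.1 CPM in db/db. Among 10 genes known to be higher in male mouse kidney 9 rose, with sums of 1873 to 3683 CPM in db/m and 46643 to 51021 CPM in db/db, and all 5 genes known to be higher in female kidney fell (720.4 to 939.7 against 106 to 207 CPM). Xist was at or below 0.365 CPM and 4 Y-linked genes were detected in all 6 libraries. Of 9 markers of the late proximal tubule segment S3, 7 rose, with sums of 599 to 866 CPM against 3490.2 to 4591 CPM. Slc5a1 and Slc22a13 did not pass, with log2 ratios of -0.35 (adjusted p = 0.185) and 0.50 (adjusted p = 0.278). Of 12 markers of segments S1 and S2, 2 rose and 2 fell (9869.9 to 13941 against 14809 to 18183 CPM). These lists are not separate: Slc7a13, Cyp7b1 and Acsm3 are 3 of the 7 S3 markers that rose and are also among the 9 male-biased genes that rose, and Cyp2e1, which rose, is both on the male-biased list and on that of S1 and S2. What part the sex-biased or segment genes have in the changes of conjugation enzymes was not tested.

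Other tissues were checked by their markers. In liver, which expresses many of the same enzymes, Alb and Cps1 are abundant; here Alb was at 4.53 to 16.9 CPM and Cps1 at or below 0.120 CPM in every library. Of 12 tested hepatocyte markers 1 rose and 5 fell, with sums of 636 to 733 CPM in db/m and 353 to 517 CPM in db/db. Adipocyte markers summed to 52.0 to 177 CPM against 71.4 to 374 CPM, highest in db/m and db/db replicates 3, and the 5 tested did not pass. Adrenal markers summed to 8.24 to 19.3 against 7.23 to 10.2 CPM with 1 of 4 lower, and Cyp11b1 and Cyp21a1 were at 0. Leukocyte markers summed to 58.8 to 86.9 against 32.0 to 35.9 CPM with 1 of 9 lower. The 6 urothelial markers (32.2 to 90.8 against 1.35 to 44.9 CPM) and the 5 red cell markers (29.5 to 144 against 37.6 to 279.7 CPM) did not pass. Of 7 distal nephron and collecting duct markers 1 rose and 2 fell (3930.1 to 5660.1 against 3143 to 5109.8 CPM), and of 6 glomerular markers 1 fell (337 to 389 against 294 to 376 CPM), so kidney markers were plentiful in all libraries. Total counts ran from 25937756 to 35931140 per library. Lepr itself did not pass (log2 ratio 0.56 ± 0.33 SE), and its RNA level does not check the labels, since the db mutation alters splicing.

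The cofactors and transporters that conjugation depends on were described through 7 lists. Over their 102 different genes in the table, 98 were tested, 30 rose and 20 fell, with a median log2 ratio of 0.18. Of all 16373 genes tested, 24.0% were called, 13.1% higher and 10.8% lower, and the count of each list stands beside these shares. In glutathione synthesis and turnover 12 of 19 tested genes rose and 1 fell (median 0.49). These counts depend on the setting: with total count scaling 7 were called higher and 4 lower, with the replicate block 7 were higher, and with replicate 3 of both groups left out 6 were. Gss, glutathione synthetase, was at 207, 219 and 229 CPM in db/m and at 445, 423 and 425 CPM in db/db (log2 ratio 0.98 ± 0.08 SE, adjusted p = 0.000478). Ggt1, the brush border enzyme that starts the breakdown of glutathione and its conjugates, was at 619, 627 and 743 CPM against 1712, 2052 and 1613 CPM (log2 ratio 1.44 ± 0.13 SE, adjusted p = 0.000769). Ggct, which opens gamma-glutamyl dipeptides, rose by 2.33 (SE 0.17, adjusted p = 0.000358) on the log2 scale. Glo1, which disposes of methylglyoxal with glutathione, fell from 225, 277 and 249.6 CPM to 112, 123 and 107 CPM (log2 ratio -1.14 ± 0.10 SE, adjusted p = 0.000773).

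**Figure D4:**
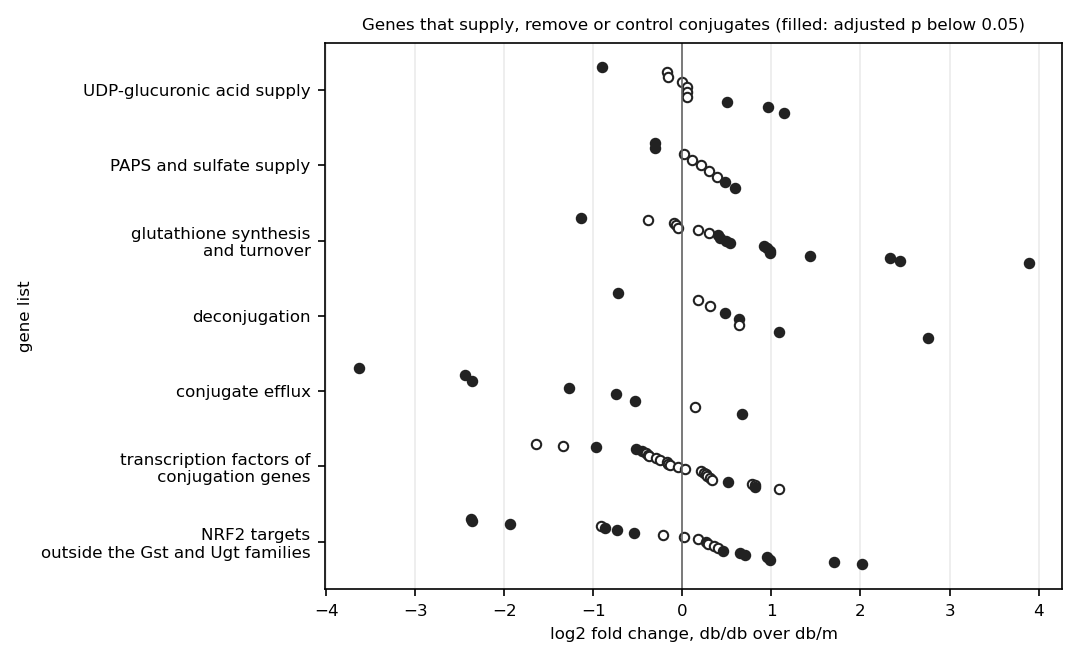
Log2 fold change of each tested gene in the 7 lists of conjugation partners, 1 row per list, filled where the adjusted p was below 0.05. Glutathione synthesis and turnover lies mostly to the right of 0 with 12 genes called higher (7 with total count scaling or the replicate block), and conjugate efflux mostly to the left with 6 called lower.

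Deconjugation genes also leaned upward, with 4 of 8 higher, 1 lower and a median of 0.55. Gusb and Sts did not pass, with log2 ratios of 0.64 (adjusted p = 0.0545) and 0.31 (adjusted p = 0.363). Acy1 rose by 0.47 on the log2 scale (adjusted p = 0.0199). Its call was lost with total count scaling (adjusted p = 0.195) and without any 1 db/db library (0.0526 to 0.0665). Leaving out replicate 3 of both groups also ended it (adjusted p = 0.110). Acy3, which deacetylates mercapturic acids, was at 436, 421 and 777 CPM in db/m and at 3828, 3748 and 3463 CPM in db/db (log2 ratio 2.76 ± 0.25 SE, adjusted p = 0.000773). Arsg and Arsb, lysosomal sulfatases, had log2 ratios of 1.09 (adjusted p = 0.000984) and 0.63 (adjusted p = 0.00241), and Arsa, another, one of -0.72 (adjusted p = 0.0198), a call that ended when db/db replicate 2 or 3 was left out, at adjusted p values of 0.0685 and 0.062. As for the 3 Ugt2b genes that rose, db/m replicate 3 was the highest control for Acy3.

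The list of conjugate efflux genes leaned downward. It also holds the P-glycoproteins Abcb1a and Abcb1b, which are among those that fell. Of its 8 genes 6 fell (3 with replicate 3 of both groups left out), 1 rose and the median was -1.01. The Abcc1 call (log2 ratio -0.75, adjusted p = 0.0244) was lost without db/m replicate 2 or 3 or db/db replicate 1 or 2 (0.0635 to 0.0801). Abcc4, a pump of the tubule for glucuronides, sulfates and other organic anions, was at 153, 95.4 and 109 CPM in db/m and at 25.4, 19.5 and 24.6 CPM in db/db (log2 ratio -2.36 ± 0.20 SE, adjusted p = 0.000535). Abcb1b, a P-glycoprotein, fell by 2.45 (SE 0.19, adjusted p = 0.000435) on the log2 scale and Abcc3, a basolateral pump that is also 1 of the 5 female-biased genes, by 3.64 (SE 0.52, adjusted p = 0.0035). Abcg2, an apical pump for sulfates and urate, was at 241, 211 and 213 CPM against 359.9, 353 and 344 CPM (log2 ratio 0.67 ± 0.09 SE, adjusted p = 0.00241). Abcc2, the apical conjugate pump, had a log2 ratio of 0.14 (adjusted p = 0.559).

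Of 10 tested genes for UDP-glucuronic acid supply 3 rose and 1 fell. Slc35d2 and Slc35a3, Golgi carriers of UDP-sugars, had log2 ratios of 1.14 (adjusted p = 0.0019) and 0.96 (adjusted p = 0.00398), Pgm1 one of 0.50 (adjusted p = 0.00715) and Hk1 one of -0.91 (adjusted p = 0.015). Ugdh, which makes UDP-glucuronic acid, was at 88.4, 94.9 and 98.1 CPM against 92.4, 61.9 and 96.6 CPM (log2 ratio -0.17, adjusted p = 0.487). Slc35d1, another carrier on this list, and Ugp2 did not pass either. Their log2 ratios were 0.05 (adjusted p = 0.680) and -0.17 (adjusted p = 0.308). Of 9 genes for sulfate and PAPS 2 rose and 2 fell, all by less than 2-fold. The sulfate exchanger Slc26a1 and the PAPS carrier Slc35b2 had log2 ratios of 0.60 (adjusted p = 0.00753) and 0.48 (adjusted p = 0.0104). The Slc35b2 call ended with total count scaling (log2 ratio 0.22, adjusted p = 0.0964). The PAPS synthase Papss2 and the sodium sulfate cotransporter Slc13a1 both had -0.30 (adjusted p = 0.0491 and 0.035). Neither call held when any one of the 6 libraries was left out (adjusted p from 0.0698 to 0.1397 for Papss2 and from 0.0501 to 0.126 for Slc13a1), nor with the replicate number as a block (adjusted p = 0.123 and 0.112). Leaving out db/db replicate 2 or 3 ended the Hk1 call, with adjusted p values of 0.053 and 0.05001. Without replicate 3 of both groups the Slc35b2, Pgm1 and Hk1 calls ended, at adjusted p values of 0.0815, 0.0682 and 0.0996.

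Among 26 tested transcription factors known to act on conjugation genes 2 rose and 4 fell. These 6 of 26 are near the share called over all genes tested, 24.0%. With total count scaling 1 was called higher and 9 lower. Leaving out any one of the db/m replicates brought those lower to 2, and leaving out 1 library at a time gave 1 to 4 higher. Nr1i2, the xenobiotic receptor PXR, was at 14.1, 14.0 and 12.3 CPM in db/m and at 5.94, 7.77 and 6.94 CPM in db/db (log2 ratio -0.97 ± 0.15 SE, adjusted p = 0.0049). Bach1, a repressor of antioxidant genes, had a log2 ratio of -0.52 (adjusted p = 0.012). Nr1h4, the bile acid receptor FXR, was at 209.9, 129 and 148 CPM against 285, 287 and 288 CPM (log2 ratio 0.82 ± 0.17 SE, adjusted p = 0.0147). Leaving out replicate 3 of both groups ended the Bach1 and Nr1h4 calls, at adjusted p values of 0.0636 and 0.107. Nfe2l2, which encodes NRF2, had a log2 ratio of -0.41 ± 0.13 SE (adjusted p = 0.0618).

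Targets of NRF2 outside the Gst and Ugt families did not move in 1 direction: 8 of 21 rose, 6 fell and the median was 0.26. With total count scaling, the replicate block or replicate 3 of both groups left out, 5 were called higher. Me1, which makes NADPH, was at 136, 115 and 176 CPM in db/m and at 596, 548 and 577 CPM in db/db (log2 ratio 2.01 ± 0.16 SE, adjusted p = 0.000435). Prdx1 and Gclm rose, with log2 ratios of 0.71 (adjusted p = 0.00241) and 0.99 (adjusted p = 0.00333). Abcc4, given above, is on this list too. Nqo1, named after its values were seen, fell from 115, 108 and 103 CPM to 72.4, 57.7 and 65.3 CPM (log2 ratio -0.74 ± 0.10 SE, adjusted p = 0.00327). The core letters of the antioxidant response element, TGACNNNGC, which the reverse strand of AGGTCA can overlap, were in 12.4% of all RefSeq windows, in none of the 9 windows of conjugation genes that rose and in 3 of the 22 windows of those that fell.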

How the data were processed

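The labels' protocols describe oligo(dT) selection and strand-specific libraries. The submitters' processing notes name fastp, FastQC, HISAT2, SAMtools, StringTie and DESeq2 with no version or role, and these sources do not give the genome build or how reads were counted. The authors deposited raw counts, as whole numbers for each gene symbol.

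Low genes were dropped by filterByExpr (16373 tested), and edgeR 4.0.16 (quasi-likelihood test, TMM, no covariates, R 4.3.3) compared the groups. Benjamini-Hochberg adjustment ran over all genes tested, and a call is an adjusted p below 0.05. CPM uses TMM-scaled library sizes (factors 0.901 to 1.122), and an SE is the log2 ratio over the square root of F. Sums and motif shares carry no test. Libraries within a group differed beyond sampling noise (chi-square over its degrees of freedom 16.8 to 66.3) and were kept as replicates.

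The genes and lists were chosen with earlier results of these data known. Named genes were called members with a mean of at least 1 CPM, the 2 most abundant of each subfamily, and up to 4 of each partner list by smallest p (3 in the main direction, 1 in the other). Other genes were named after their values were seen. Gene order came from RefSeq (GRCm38.p6, all 55 symbols matched). Protein identity and transcript windows came from GENCODE M21 (Biopython 1.88), in place of RefSeq proteins.

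A simulation of the db/db against db/m comparison (16052 genes tested) gave recovery of 28%, 68%, 96% and 100% for changes of 1.5, 2, 4 and 8-fold. There were 12 false calls among 158 (7.59%). It changed only a small set of well-counted genes, and took the spread of each gene from the trend with level. In the data 3925 genes were called, so these rates need not hold for the comparison itself or for rare genes. Alternatives were scaling by DESeq2 size factors, upper quartile or total counts, the Wald test of DESeq2 1.42.0, limma-voom (limma 3.58.1), other filters on low counts, no mitochondrial genes, a replicate block, near copies summed, and libraries left out.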

Additional observations from a re-analysis of the deposited data

How the results depend on the processing

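Over the 44 genes tested, 701 values under other settings left 651 on the same side of the threshold, while 45 lost the call and 5 gained it. None of the 26 called genes changed direction under any of them, and 8 uncalled genes did, in 19 values. The DESeq2 Wald test and DESeq2 size factors called the same 26 genes. Total count scaling moved the median of all genes from -0.06 to -0.32. With it 5 conjugation genes were higher and 21 lower, none of the Gst genes was higher (0), partner genes called lower numbered 31, and Suox had a log2 fold change of -0.24 (0.02 with TMM). All genes then split into 1072 higher and 4883 lower, against 2151 and 1774 with TMM. With db/m and db/db replicates 3 both left out, which leaves 2 libraries a group, 5 genes were higher (1 of them Gst), Ugt genes called lower numbered 3 and Sult genes 1, partner genes 18 higher and 10 lower, and 19 of the 26 calls remained. Leaving out 1 library at a time gave 5 to 8 genes higher, 0 to 3 Gst genes higher and 7 to 11 Gst genes lower. The lowest total was 18 called, without db/db replicate 3. The sources used here do not say whether the replicate numbers pair the libraries. Same-numbered libraries had deviations correlated at -0.15, 0.06 and 0.14, and not every library correlated best with its own number. Deviations from a group mean sum to 0, so these values cannot decide whether libraries were paired. With the replicate block 5 genes were higher and 16 lower, with 0 Gst genes higher, and Gstz1, Ugt1a5, Gstp1, Mgst3 and Gstm4 lost their calls. Depth left 11 of the 55 genes untested, and reads shared by near copies in the Ugt1a, Ugt2b, Gsta and Gstp groups limit what single rows show.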

Other observations

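Some further genes of the partner lists, named after their values were seen, had called differences. Chac1, which breaks glutathione down inside cells, was at 0.291, 0.532 and 1.96 CPM in db/m replicates 1 to 3 and at 13.4, 11.6 and 16.3 CPM in db/db replicates 1 to 3, a log2 ratio of 3.89 ± 0.60 SE (adjusted p = 0.00506, edgeR). The highest control was db/m replicate 3, and without that library the log2 ratio was 5.02 ± 0.32 SE. Nat8, the kidney enzyme that finishes mercapturic acids by acetylation, was at 316, 188 and 287 CPM against 397, 596 and 497 CPM (log2 ratio 0.91 ± 0.22 SE, adjusted p = 0.0244). The Nat8 call was lost without db/db replicate 2 (adjusted p = 0.0781), without db/db replicate 3 (adjusted p = 0.0696), without replicate 3 of both groups (adjusted p = 0.110) and with the replicate number as a block (adjusted p = 0.0718). Gclc, the catalytic subunit of the first enzyme of glutathione synthesis, was at 126, 137 and 118 CPM against 328, 167 and 240.4 CPM (log2 ratio 0.95 ± 0.22 SE, adjusted p = 0.0225), with db/db replicate 2 the lowest of its group. The Gclc call was lost without any one of the 3 db/m replicates or without db/db replicate 3 (adjusted p from 0.0515 to 0.0625), without replicate 3 of both groups (adjusted p = 0.130), with total counts as the only scaling (adjusted p = 0.0519) and with the block (adjusted p = 0.0513).

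Among the NRF2 targets, Cbr1, a carbonyl reductase, was at 157, 263 and 121 CPM in db/m and at 34.5, 31.8 and 37.4 CPM in db/db (log2 ratio -2.38 ± 0.28 SE, adjusted p = 0.00181). Ephx1, the microsomal epoxide hydrolase, was at 101, 97.5 and 119.5 CPM against 50.8, 53.5 and 70.3 CPM (log2 ratio -0.87 ± 0.14 SE, adjusted p = 0.00665). Groups did not overlap for either gene. Hmox1, on the same list, rose from 25.0, 28.2 and 21.1 CPM to 113, 57.7 and 70.6 CPM (log2 ratio 1.70 ± 0.25 SE, adjusted p = 0.00405), also without overlap. Of the 21 tested genes of that list 8 rose and 6 fell.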
